A study of Caenorhabditis elegans with 12 samples.

Results

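The gene endu-2 (sequence name M60.2, on chromosome X of Caenorhabditis elegans) encodes a ribonuclease of the EndoU family. It was picked by its symbol in the platform annotation and is 1 of the 17118 genes that the arrays measured with probe sets of a single symbol. It is read by 2 of the 22548 probe sets, a probe set being a group of short oligonucleotides that together read a transcript. These are called the brighter and the dimmer endu-2 probe set here, by their mean signal. The gene was chosen because its signal was higher at 4 h than at 0 h, so its levels, and its changes from 0 h, are a description and carry no test.

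EndoU enzymes are endoribonucleases, found in animals from worms to vertebrates, that cut RNA internally at uridines. In earlier genetic work on the worm, ENDU-2 was tied to survival in the cold after growth at a given temperature, to the balance of pyrimidine nucleotides and to the upkeep of the germline. It is made in several somatic tissues, the intestine among them, and can be secreted.

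Total RNA of synchronized adults, taken as whole bodies of the wild-type strain N2 Bristol, was read on 12 Affymetrix arrays. All animals were grown at 23 °C for 2.5 days from embryos released by bleach. Sampling was just before a move to 17 °C (0 h, 4 arrays) and at 1 h (2 arrays), 2 h (2 arrays) and 4 h (4 arrays) after it, and arrays are named here by time and replicate number. No array came from animals held at 23 °C for the same hours, so elapsed time and handling enter every change from 0 h beside the temperature. Whether replicates were separate cultures is not stated in the labels, so a p-value measures only the spread between these samples. Whole animals were used, so fewer cells of a type and less RNA per cell cannot be told apart.

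Signals are on the log2 scale, where a difference of 1 is a doubling. The 12 arrays had medians of 5.502 to 5.571 and lower quartiles of 3.53 to 3.64. Pearson's r between arrays over all probe sets was 0.994 to 0.998. Arrays of 4 h and 0 h that share a replicate number deviated together from their time means, and the 1 h and 2 h arrays carry numbers 1 and 2 only. Germline and oocyte markers (array means 11.3 to 11.4 at 4 h and 11.2 to 11.4 at 0 h) and vitellogenins (13.2 to 13.3 at both times) were bright on all 12 arrays.

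The endu-2 signal was 4.40-fold higher at 4 h than at 0 h on the brighter probe set, and it stepped up at each sampled time between. The brighter probe set read 6.70, 6.91, 7.62 and 7.05 log2 units on replicates 1 to 4 at 0 h, then 7.53 and 7.27 at 1 h, 7.86 and 8.51 at 2 h, and 9.31, 9.18, 9.26 and 9.08 at 4 h. The 1 h arrays lay within the range of the 0 h arrays, both 2 h arrays lay above all 0 h and 1 h arrays, and the 4 h arrays lay above all others. Group means were 7.07 ± 0.397 at 0 h (SD, n = 4), 7.40 ± 0.189 at 1 h (n = 2), 8.19 ± 0.458 at 2 h (n = 2) and 9.21 ± 0.0983 at 4 h (n = 4). The arrays before the move were spread over 0.928 log2 units, with replicate 3 highest, whereas the 4 h arrays were spread over 0.226.

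The dimmer probe set gave the same course. It read 5.57, 4.78, 5.81 and 5.65 log2 units at 0 h, 5.91 and 5.91 at 1 h, 6.35 and 7.11 at 2 h, and 7.52, 7.57, 7.66 and 7.57 at 4 h. Here the 1 h arrays also lay above every 0 h array, by a margin far smaller than the spread at 0 h, and replicate 2 at 0 h was the low array. The 4 h mean was 7.58 ± 0.0577 and the 0 h mean 5.45 ± 0.461 (SD, n = 4 each), a 4.38-fold difference. Over the 12 arrays the 2 probe sets had a Pearson's r of 0.966. For deviations from the time means r was 0.601. They share the RNA of each array and differ only in their oligonucleotides.

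**Figure D1:**
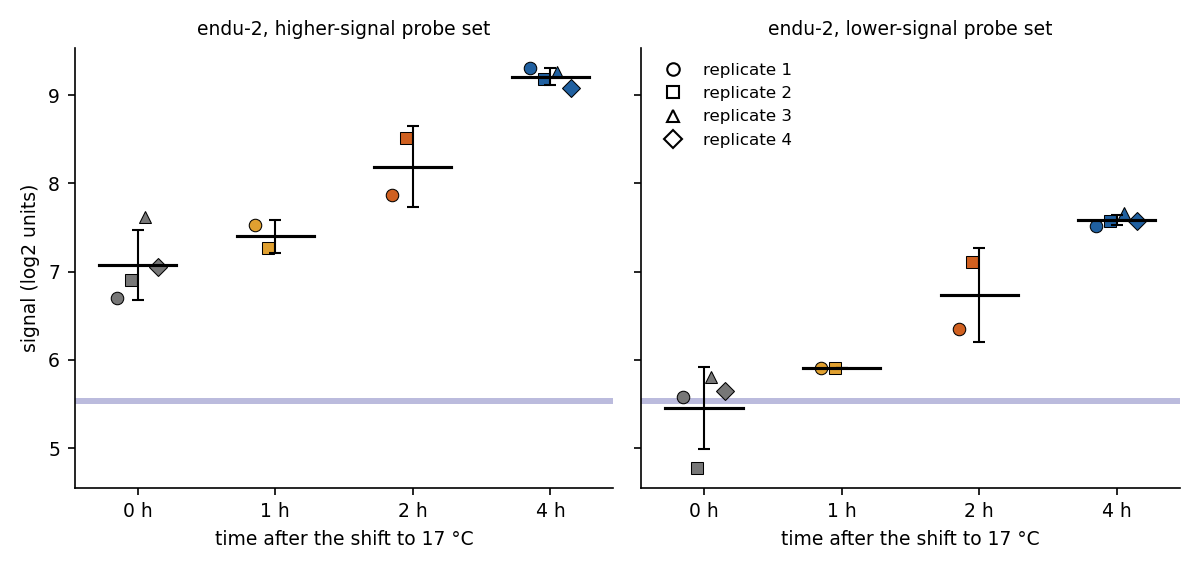
Signal in log2 units (y axis) of the brighter (left) and dimmer (right) endu-2 probe set on each array by time after the move to 17 °C (x axis). Symbols are replicate numbers, bars are means, whiskers are 1 SD, and the blue band is the range of array medians (5.502 to 5.571). The 4 h arrays lie at 9.08 to 9.31 on the left and at 7.52 to 7.66 on the right, above every earlier array.

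The change of the brighter probe set over 0 h was 0.33 at 1 h (SE 0.219), 1.12 at 2 h (SE 0.219) and 2.14 at 4 h (SE 0.179) in log2 units, with standard errors from one linear model over the 12 arrays (limma). For the dimmer probe set the changes were 0.46 (SE 0.242), 1.28 (SE 0.242) and 2.13 (SE 0.198). These comparisons share the 0 h arrays. Within replicate numbers, 4 h exceeded 0 h on the brighter probe set by 2.62, 2.28, 1.64 and 2.03, and on the dimmer one by 1.95, 2.80, 1.85 and 1.92. The order of the replicates differed between the probe sets, and each of these differences was above 1.5 log2 units.

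The early values moved with the choice of arrays. Against the 0 h arrays of replicates 1 and 2 alone, the brighter probe set stood 0.60 higher at 1 h and 1.39 higher at 2 h. Leaving out 1 array at a time moved the 1 h change between 0.20 (without replicate 1 at 1 h) and 0.51 (without replicate 3 at 0 h). The 2 h change was 1.44 without replicate 1 at 2 h and 0.79 without replicate 2 at 2 h, and the 4 h change stayed between 2.01 and 2.32 when single arrays were left out.

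The difference between 2 h and 1 h is the one whose value holds no array of the contrast that led to the choice of the gene, though its spread in the fit over 12 arrays does come from those arrays as well. In that step the brighter probe set was 0.79 log2 units higher at 2 h than at 1 h (SE 0.253), with both 2 h arrays above both 1 h arrays, and missed the threshold of 0.05 (limma adjusted p = 0.631, unadjusted p = 0.0081). In a fit to just the 2 h and 1 h samples (4 arrays) the difference had an SE of 0.221 and a limma adjusted p of 0.9995. The dimmer probe set was 0.82 higher (SE 0.279, limma adjusted p = 0.704). No probe set passed in this step (0% of 22548 in limma, 1377 with an unadjusted p under 0.05), which rests on 2 arrays a time. Both arrays of the later time lay above both of the earlier in 15.1% of probe sets.

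Against all other genes, the endu-2 difference between 4 h and 0 h was the largest upward one on the arrays. With 1 probe set per gene, the one with the highest mean signal, endu-2 ranked 1 of 17118 in log2 change, and the 2 endu-2 probe sets ranked 1 and 2 of 22548. The next genes were kqt-2 (1.98), Y37H2A.14 (1.53) and C10C5.5 (1.501), and only 28 genes were higher by 1 log2 unit or more. The lowest 1% of genes lay below -0.45 and the highest 1% above 0.52. Leaving out each of the 8 arrays of 4 h and 0 h in turn kept endu-2 at rank 1. At 2 h it ranked 38 of 17118 genes, where C06B3.7 (2.01) and the tetraspanin gene tsp-2 (1.97) led, and at 1 h it ranked 394. Every 4 h array lay above every 0 h array for 4.61% of probe sets, every 2 h array above every 0 h array for 10.4%, and every 1 h array for 6.6%. At 4 h and at 2 h both endu-2 probe sets were among them, and at 1 h the dimmer one was.

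**Figure D2:**
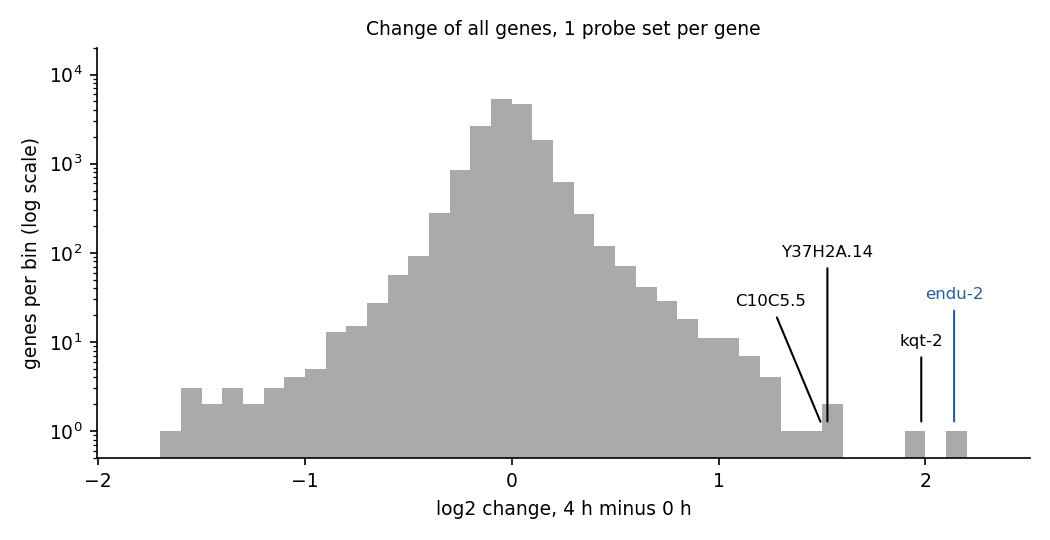
Number of genes per bin of 0.1 log2 units (y axis, log scale) by log2 change at 4 h minus 0 h (x axis), with 1 probe set for each of 17118 genes. The lines mark endu-2 at 2.14 and the 3 next genes, kqt-2 at 1.98, Y37H2A.14 at 1.53 and C10C5.5 at 1.501.

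As a position among signals on the same array, the brighter endu-2 probe set exceeded 80.2 to 82.6% of all probe sets at 4 h and 60.1 to 67.5% at 0 h. The dimmer one stood near the array medians at 0 h. Probe sets differ in how strongly they bind, so this places the readings above the dim end of the arrays and gives no abundance relative to other genes.

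The gene whose profile was nearest to endu-2 lies within it. In the gene table of assembly WBcel235, used here for gene order only, the annotated span of kqt-2, a potassium channel gene of the KQT family with a role in cold acclimation in earlier work, falls wholly inside the span of endu-2, and kqt-2 is the only protein-coding gene that overlaps it. Over the 12 arrays the brightest of the 3 kqt-2 probe sets had a Pearson's r of 0.987 with the brighter endu-2 probe set and of 0.985 with the dimmer one. It read 6.11, 5.89, 6.46 and 6.30 at 0 h, 6.69 and 6.28 at 1 h, 6.99 and 7.69 at 2 h, and 8.09, 8.23, 8.25 and 8.12 at 4 h. Its deviations from the time means correlated with those of the endu-2 probe sets (r = 0.808 and 0.833 over the 12 arrays). That is no separate evidence, because the gene was picked by its r over the same arrays. With the brighter endu-2 probe set, this r of deviations reached 0.942 among all other genes. Among genes higher at 4 h it reached 0.845, with a median of 0.156.

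The other kqt-2 probe sets followed it less closely. The second read 6.46, 6.46, 6.20 and 6.06 at 4 h against 5.87, 5.97, 5.95 and 5.87 at 0 h, a change of 0.38 (SE 0.0966, limma adjusted p = 0.0658). The dimmest read 3.62 to 3.85 at 4 h against 3.40 to 3.599 at 0 h, a change of 0.27 (SE 0.088, limma adjusted p = 0.17) at the level of the lower quartile. Neither passed. All 4 arrays at 4 h lay above all 0 h arrays on both, as they did for 4.61% of all 22548 probe sets. The brightest kqt-2 probe set changed by 1.98 (SE 0.154, limma adjusted p = 6.6e-05). Deviations of the other 2 from the time means correlated with those of the brightest kqt-2 probe set at 0.227 and -0.322. Which of the 2 overlapping genes the brightest kqt-2 probe set reads was not tested, and its value is uncertain as a measure of kqt-2.

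**Figure D3:**
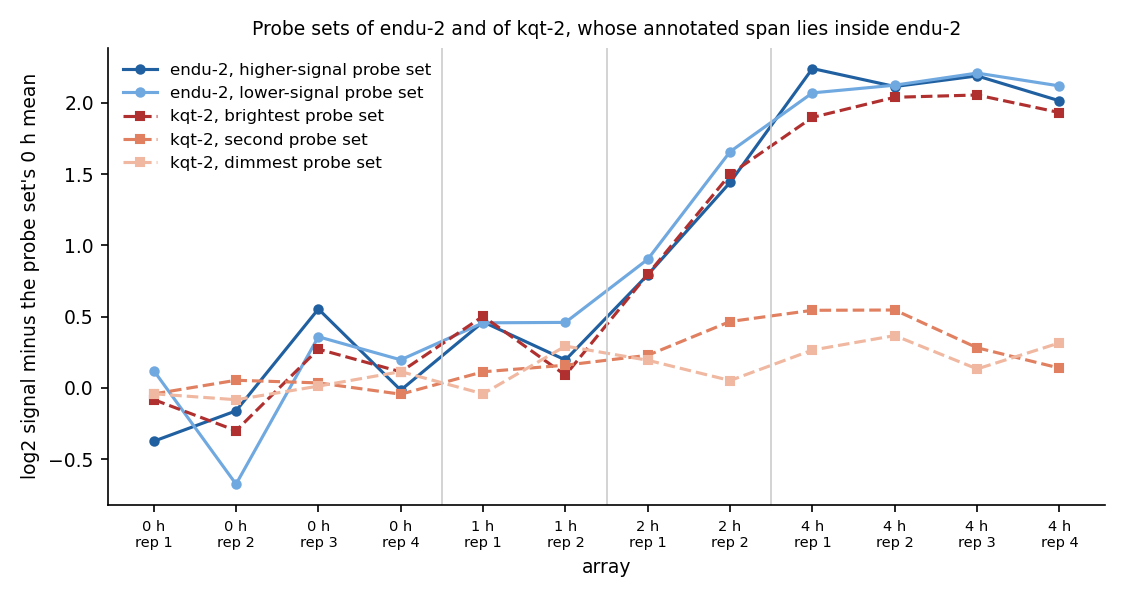
Log2 signal minus the same probe set's 0 h mean (y axis) on each of the 12 arrays (x axis) for the 2 endu-2 probe sets (circles, solid lines) and the 3 kqt-2 probe sets (squares, dashed lines). At 4 h the brightest kqt-2 probe set averages 1.98, close to the endu-2 probe sets (2.14 and 2.13), while the other kqt-2 probe sets average 0.38 and 0.27.

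The genes around that pair on the chromosome were also read. Of the 5 nearest measured protein-coding genes on each side of endu-2 in the order of gene starts, kqt-2 included, 1 of 10 passed at 4 h, and that was kqt-2. Changes of the other 9 lay between -0.15 (the neuropeptide-like gene nlp-91) and 0.35 (ksr-1, a scaffold of Ras signalling, limma adjusted p = 0.153). The direct neighbours outside the pair, M60.4 at 0.04 and M60.6 at 0.14, did not pass (limma adjusted p = 0.957 and 0.787). Over the chromosome, 3.36% of 2352 other X-linked genes were called, 45 higher and 34 lower, against 2.48% of all 17118 genes.

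Besides kqt-2, the nearest profile was that of pept-1, which encodes the oligopeptide transporter of the intestinal lumen (r = 0.982 over 12 arrays). It read 7.92, 8.01, 7.90 and 7.81 at 4 h against 6.91, 7.03, 7.09 and 6.97 at 0 h, with 7.22 and 7.13 at 1 h and 7.23 and 7.57 at 2 h. As for endu-2, the 2 h arrays were apart, replicate 2 above replicate 1, and the 4 h arrays stood above all others. The change at 4 h was 0.91 (SE 0.0838), and the slope over the 12 arrays was 0.41 log2 units of pept-1 for each unit of endu-2. The r of deviations from time means was 0.764, which is no separate evidence, as pept-1 was picked by its r over the same arrays.

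Next came pbo-1 (r = 0.963), whose product is a calcium-binding protein of the intestine needed for posterior body contraction in defecation, and pmp-1 (0.962), for a transporter of the peroxisome membrane. They were followed by C31H5.6 (0.957), prg-2, a Piwi-class Argonaute gene (0.957), and the nuclear hormone receptor gene nhr-47 (0.942). The MATH and BTB domain gene bath-26 (0.941), mfsd-8.3, of the major facilitator transporters (0.938), and Y32F6A.4 (0.935) completed the 10 nearest. Their changes at 4 h ran from 0.36 (prg-2) to 1.98 (kqt-2), all smaller than that of endu-2. Where a second probe set exists it did not always follow: the change of Y32F6A.4 was 1.13 on the probe set used and -0.01 on the other, and that of nhr-47 0.53 and 0.24, whereas pbo-1 (0.51 and 0.49) and bath-26 (0.68 and 0.67) had close values on both.

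**Figure D4:**
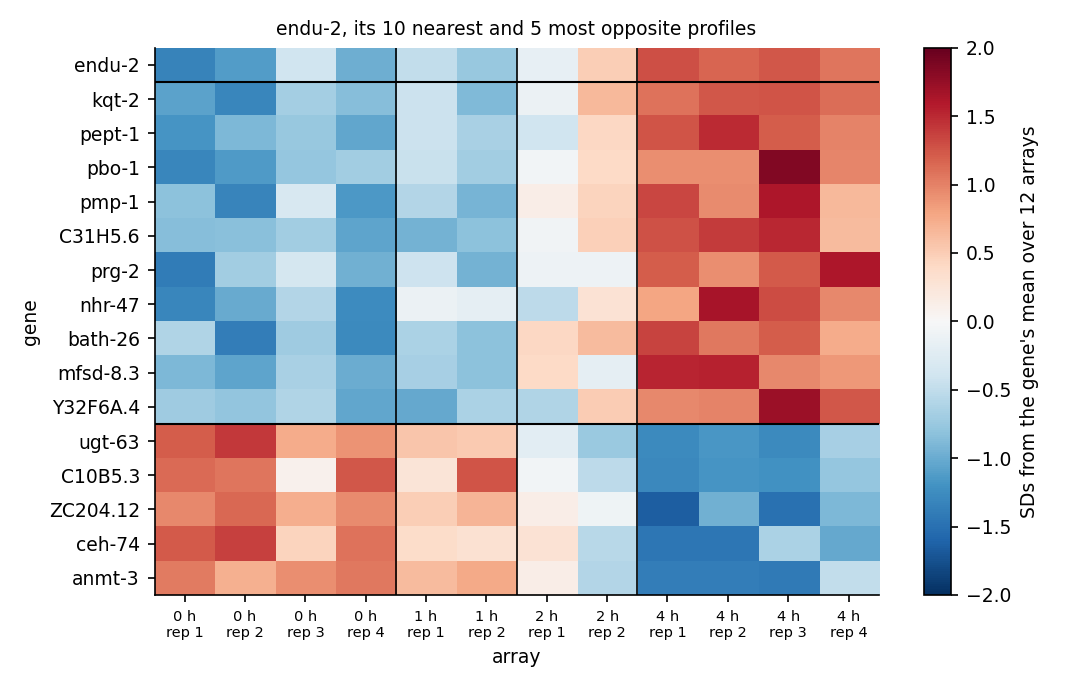
Signal of endu-2 (top row), its 10 nearest profiles and its 5 most opposite profiles (rows, 1 probe set per gene) on the 12 arrays (columns), in SDs from each gene's own mean over the arrays. The nearest profiles have r between 0.935 and 0.987 with endu-2 and have their highest mean at 4 h, and the opposite ones have r between -0.971 and -0.954 and have their lowest mean there.

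In all, 27 of 17117 other genes (0.158%) had an r of at least 0.9 with endu-2, the last inside being ech-9 (0.903) and the first outside ads-1 (0.8997). Their median change at 4 h was 0.58, against -0.01 over all other genes. These genes were selected on the same 12 arrays, so their changes are no separate evidence. On chromosome X lay 5 of the 27 (18.5%), kqt-2 among them, against 13.7% of all other genes. That is near the share among the 246 other genes higher at 4 h (18.3%).

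The list of nearest genes depends on the measure and the arrays. With Spearman's rho, 24 genes reached 0.9, 15 of them among the 27, and sup-37 came first. With the dimmer endu-2 probe set as the template, kqt-2 was again first and 15 of its 28 like genes were among the 27. Over the 8 arrays of 4 h and 0 h alone 180 genes reached 0.9 and 2 of the 10 nearest stayed among the first 10. Leaving out any single array kept at least 6 of the 10 nearest and put kqt-2 first each time except without replicate 2 at 4 h, when pept-1 was first.

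The profiles most opposite to endu-2 were those of the UDP-glucuronosyltransferase gene ugt-63 (r = -0.971), C10B5.3 (-0.970), ZC204.12 (-0.969), the homeobox gene ceh-74 (-0.963) and the amine N-methyltransferase gene anmt-3 (-0.954). The gene ugt-63 read 6.39, 6.47, 6.39 and 6.83 at 4 h against 8.16, 8.30, 7.83 and 7.94 at 0 h, with 7.69 and 7.68 at 1 h and 7.15 and 6.78 at 2 h. Its 2 h arrays lay below all 0 h and 1 h arrays, and replicate 2 at 2 h fell within the range of the 4 h arrays, unlike on endu-2, where the 2 h arrays stayed apart from 4 h. An r of -0.9 or lower was found for 29 genes (0.169%).

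The other EndoU gene on the arrays, endu-1, did not pass at any time. It read 9.49, 9.51, 9.57 and 9.52 at 4 h against 9.32, 9.44, 9.41 and 9.64 at 0 h, with the 4 h arrays inside the range of the 0 h arrays. The change was 0.07 (SE 0.0741, limma adjusted p = 0.806), and at 1 h and 2 h it was 0.03 and 0.12. Its r with endu-2 was 0.376.

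Genes that earlier work links to endu-2 by function or trait were read from 6 lists with 94 measured genes besides endu-2. At 4 h, 3 of these rose and 1 fell, which is 4.26% of the list genes, against 1.44% of all genes higher and 1.04% lower. Without kqt-2, 3 of 93 (3.23%) passed, near the 2.48% of all genes called. The lists were chosen with earlier results of these data known, so these shares are a description. The median change of the 94 was 0.04, against -0.01 over all genes.

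Most of those calls were among genes tied to cold tolerance or growth in the cold, of which 24 were measured, 2 rose, 1 fell and 21 did not pass. Without kqt-2, 2 of 23 passed (8.70%), against 2.48% of all genes. Besides kqt-2, the cathepsin B-like protease gene cpr-3 rose. It read 7.81, 7.71, 7.69 and 7.75 at 4 h against 6.88, 6.77, 7.12 and 7.01 at 0 h, a change of 0.79 (SE 0.092, limma adjusted p = 0.000526). Its 2 h arrays (7.998 and 8.32) lay above the 4 h arrays, unlike those of endu-2. The other cold gene called was fat-6, for a fatty acid desaturase, which read 9.18, 8.76, 9.39 and 9.36 at 4 h against 9.62, 9.64, 9.87 and 10.12 at 0 h. It fell by 0.64 (SE 0.141, limma adjusted p = 0.0305), a call lost without replicate 1 or 2 at 4 h or replicate 3 or 4 at 0 h (adjusted p up to 0.0922). With the replicate number as a block, asp-17, at 0.70 without it (adjusted p = 0.0602), passed at 4 h as well, and 2.73% of probe sets were called.

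At 2 h, 4 of the 24 cold genes rose, kqt-2 (1.147, limma adjusted p = 0.0103), cpr-3 (1.21, adjusted p = 0.000416), zip-10 (1.29, adjusted p = 0.00867) and asp-17 (1.22, adjusted p = 0.0156). Without kqt-2, whose probe set is uncertain, 3 of 23 passed (13.04%). The list was chosen with earlier results of these data known, so this share is no test of an excess. No gene of the other 5 lists was called at 2 h, against 0.707% of all genes higher and 1.06% called in either direction. With that block fat-7, a close relative of fat-6, passed as well, and the probe sets called at 2 h came to 1.84%, against 0.967% without it. The bZIP factor gene zip-10 and the aspartyl protease gene asp-17 act in a cold response pathway with isy-1 (-0.10 at 2 h, not past the threshold). At 4 h zip-10 read 5.78 to 6.14, against 5.42 to 5.96 at 0 h, a change of 0.24 (limma adjusted p = 0.658), whereas endu-2 was highest then. The call of zip-10 at 2 h was lost without replicate 1 at 2 h, and those of kqt-2 and asp-17 without replicate 2 at 2 h (adjusted p = 0.0688, 0.257 and 0.178). That of asp-17 was also lost in a fit to just the 2 h and 0 h arrays. At 1 h 0% of 17118 genes passed in limma, 1103 having an unadjusted p under 0.05.

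Among 12 genes of pyrimidine synthesis and salvage at 4 h, the cytidine deaminase gene cdd-1 rose and 11 did not pass. It read 7.51, 7.58, 7.40 and 7.25 at 4 h against 6.77, 6.85, 7.01 and 6.84 at 0 h, a change of 0.57 (SE 0.11, limma adjusted p = 0.014). Every 4 h array lay above every 0 h array, as for 4.58% of all genes. Of the 1 h arrays (7.33 and 6.85), 1 lay among the 4 h arrays, and the 2 h arrays (7.05 and 6.83) lay in or just above the 0 h range. The CTP synthase gene ctps-1, which genetic work places downstream of endu-2, read 8.86 to 9.01 at 4 h against 8.84 to 9.03 at 0 h (change -0.01, limma adjusted p = 0.972).

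None of the genes in the other 3 lists passed at any time in limma, and in each of these lists 1 gene had an unadjusted p under 0.05 at 4 h, against 2217 of all 17118 genes (12.95%). Among 12 genes of protein kinase A signalling and class I histone deacetylases the smallest p at 4 h belonged to the adenylyl cyclase gene acy-4 (0.36, limma adjusted p = 0.126) and the G protein gene gsa-1 (-0.18, adjusted p = 0.55). The regulatory subunit gene kin-2 stood at 0.02 and the deacetylase gene hda-1 at 0.06. Of 34 measured genes of other ribonucleases and RNA decay, rege-1, a Regnase-1 homologue that cuts mRNA, came nearest (0.35, limma adjusted p = 0.0934), then nyn-2 (-0.12, adjusted p = 0.499). Of 11 cell death genes, the change was -0.34 for the BH3-only activator gene egl-1 (limma adjusted p = 0.212), -0.20 for the mitochondrial endonuclease gene cps-6 (adjusted p = 0.431) and 0.04 for the caspase gene ced-3 (adjusted p = 0.906).

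**Figure D5:**
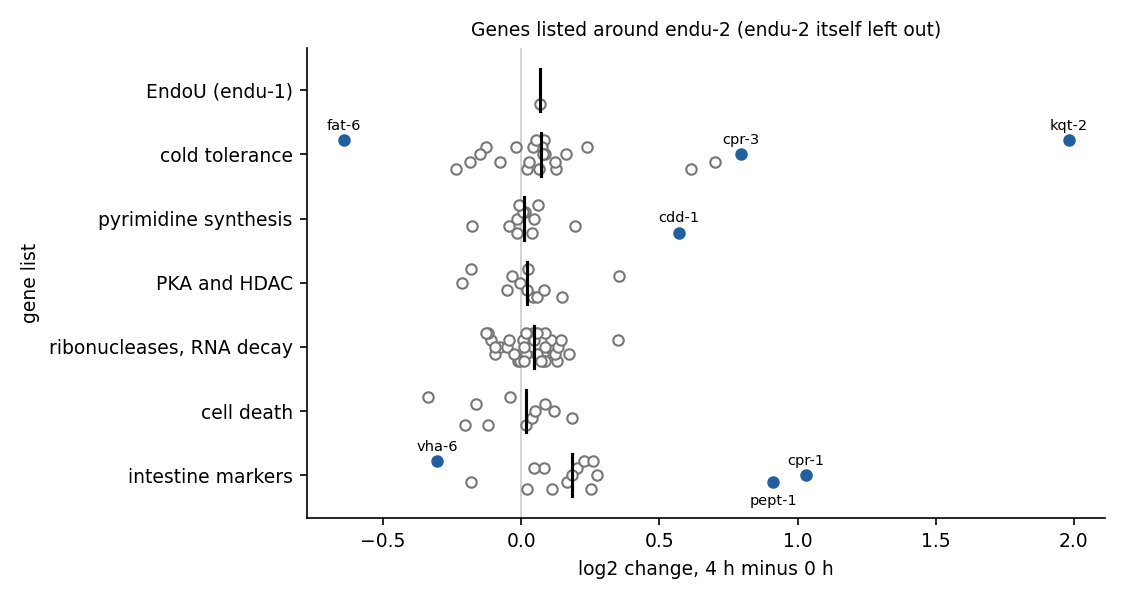
Log2 change at 4 h minus 0 h (x axis) of each measured gene of the 6 lists around endu-2 and of the intestine markers (rows, vertical spread only for legibility). Filled points passed in limma (adjusted p under 0.05), open points did not, and vertical bars are list medians. The medians of the 6 lists lie between 0.01 and 0.07, and that of the intestine markers at 0.19.

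The mean signal of the intestine markers was higher on every 4 h array than on any 0 h array, as was that of endu-2. Of 15 measured, 2 rose at 4 h (pept-1 by 0.91, limma adjusted p = 0.000127, and the protease gene cpr-1 by 1.03, adjusted p = 0.0138), 1 fell (the proton pump subunit gene vha-6 by 0.30 log2 units, adjusted p = 0.0421) and 12 did not pass, with 13 above 0, a median of 0.19 and 11 at an unadjusted p under 0.05. Of all genes, 2.48% were called, 12.95% had an unadjusted p under 0.05, and 4.58% had every 4 h array above every 0 h array. The last share is of single genes and is no measure for a mean over 15 markers. The call of vha-6 was lost without any of 11 single arrays (adjusted p up to 0.127) and that of cpr-1 without replicate 3 or 4 at 0 h (adjusted p up to 0.0519). That of vha-6 was also lost in a fit to just the 4 h and 0 h arrays. The mean over the markers was 7.82 to 7.95 on the 4 h arrays against 7.65 to 7.70 on the 0 h arrays, without overlap, and 7.72 to 7.74 at 1 h and 7.78 to 7.83 at 2 h. Without pept-1 and cpr-1, a count chosen after the values were seen, the other 13 had a mean change of 0.10 (0.22 for all 15) and array means of 7.79 to 7.90 at 4 h against 7.71 to 7.76 at 0 h, again without overlap. The vitellogenins, made in the adult intestine and kept as a list of their own, had array means that overlapped and a median change of 0.0041. The change was 0.20 for the intestinal fate gene elt-2 (limma adjusted p = 0.347) and -0.18 for the gut esterase gene ges-1 (adjusted p = 0.238). The part of the intestine in the endu-2 change was not tested. For the other 7 marker lists (muscle, neurons, coelomocytes, hypodermis, germline, sperm and yolk) the 4 h and 0 h array means overlapped, and 1 of their 57 genes passed, the sperm gene ssp-10 (-0.52, limma adjusted p = 0.0071).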

How the data were processed

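Values were log2 signals per probe set as the authors deposited them. The submitters' processing notes name RMA as the method but no version. RMA and the range of the values (1.508 to 14.36) are the basis for reading the log as base 2. For any filters or genome build, the entry is: not given in the sources used here. Sorted array values differed from their mean by at most 0.11. No scanner files were used, so signal over background was not assessed, and the number of arrays limits precision.

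Gene names came from the platform annotation (1 symbol for 20766 probe sets, several for 887, 895 unnamed here), of which 20701 matched the WBcel235 table by identifier. No coordinates are given because the files name no build. Each of 17118 genes was represented by its brightest single-symbol probe set (2981 had more than 1).

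A mean per time was fitted to all 22548 probe sets on 12 arrays by lmFit and eBayes (limma 3.58.1, R 4.3.3), which gives the 2-array times the spread of all groups (8 residual and 5.03 prior degrees of freedom). The tests were 2-sided, with Benjamini-Hochberg adjustment over all probe sets and a threshold of 0.05. Data were simulated for 22548 probe sets with independent normal noise. In them, 50 probe sets were given a change of each of 0.5, 1, 1.5 and 2 log2 units at every time after 0 h. Changes of 1 log2 unit were found in 94% of cases at 1 h, in 94% at 2 h and in 96% at 4 h. Changes of 0.5 log2 units were found in 52%, 48% and 68%, so many changes of that size or less would be missed. Planted changes ease the adjusted threshold, so the shares need not hold at 1 h, where 0 of the real probe sets passed.

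Profile likeness is Pearson's r with the brighter endu-2 probe set over the 12 arrays. Genes named are endu-2 and endu-1, the 10 nearest and 5 most opposite profiles, up to 3 genes on either side in rank of change, up to 4 called genes of each list (or 2 by smallest p), and a fixed set (ctps-1, kin-2, hda-1, ced-3, kqt-2, zip-10, asp-17, isy-1, elt-2, ges-1, pept-1). Genomic neighbours, other probe sets and called markers were added after the values were seen. The gene and the lists were chosen with earlier results of these data known.

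Deviations from the time means were correlated between 4 h and 0 h arrays of equal number (r = 0.169 to 0.314 in 4 pairs, -0.290 to 0.147 for other numbers, and 8 of 8 arrays were nearest to their own number). The numbers were thus taken to pair them, from these values and not from the labels. For pairs of other numbers, r was 0.036 to 0.147 within numbers 1 and 2 or within 3 and 4. Across these sets it was -0.290 to -0.122. The 1 h and 2 h arrays carry numbers 1 and 2 only, so a difference between the sets enters their changes from 0 h in the main fit. The main fit left the pairing by number out, and the replicate block was run as an alternative. With the block 414 probe sets passed at 2 h and 615 at 4 h, against 218 and 518 in the main fit.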

Additional observations from a re-analysis of the deposited data

Results flagged for a closer look

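In 76 groups of 4 arrays, 1 for each named gene or endu-2 probe set at 4 h and at 0 h, the gap between the most extreme array and the next was compared with the range of the group. Chance flags about 1 group in 20 by this measure, and 3 of the 76 stood out. For pbo-1 at 4 h, replicate 3 (10.2 log2 units) stood above the others (9.94 to 9.95), a gap of 0.939 of the range. For anmt-3 at 4 h, replicate 4 (6.34) stood above the others (5.69 to 5.70), a gap of 0.972 of the range. For C10B5.3 at 0 h, replicate 3 (7.17) stood below the others (7.40 to 7.44), a gap of 0.841 of the range. Neither endu-2 probe set had such an array.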

How the results depend on the processing

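The endu-2 changes and the 27 gene calls kept their direction under every alternative run on them, and 21 of the 27 calls held under each one. Genes not called in the main fit were followed only in the counts of calls and, for list genes, under the replicate block. List medians and genomic neighbours besides kqt-2 were not compared between settings. The endu-2 change at 4 h was 2.45 with replicates 1 and 2 only and 1.83 with replicates 3 and 4 only, and at 2 h it ran from 0.79 to 1.44 as single arrays were left out. Taking the replicate number as a block gave 2.14 at 4 h and 1.23 at 2 h. That block called 414 probe sets at 2 h (218 without it), and among the list genes it added fat-7 at 2 h and asp-17 at 4 h. Leaving out 1 array at a time, 0 to 11 probe sets passed at 1 h (11 without replicate 1 at 1 h), 35 to 368 at 2 h (35 without replicate 2 and 368 without replicate 1 at 2 h, 142 without replicate 2 at 0 h) and 324 to 543 at 4 h (324 without replicate 3 at 4 h, 344 and 345 without replicates 2 and 3 at 0 h). With replicates 1 and 2 only, 32 passed at 2 h and 34 at 4 h, with 2 list genes, and with replicates 3 and 4 only, 91 passed at 4 h, with 1 list gene. These settings hold fewer arrays. Genes with an r of at least 0.9 numbered 26 to 49 as single arrays were left out (43 to 49 without replicate 3 at 0 h, either 2 h array or replicate 1 at 4 h), 180 over the 4 h and 0 h arrays alone, and 960 for deviations from the replicate means (replicate block), which include all 27, though none of the 10 nearest is among the first 10 there. Chosen after the data were seen were the block within the 4 h and 0 h arrays, the count without kqt-2, the intestine markers without pept-1 and cpr-1, and the dimmer probe set as template. Signal over background could not be assessed, and 2 arrays at 1 h and at 2 h limit what those times can show.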
